A study of Rattus norvegicus with 9 samples.

Results

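The granin genes Chga, Chgb, Scg2, Scg3 and Vgf, were followed in pancreatic islets of diabetic rats on, after and without rosiglitazone. They were found by gene symbol in the platform annotation of an Affymetrix rat whole-genome array. Each was represented by 1 probe set, so the family made up 5 of 31099 probe sets and 5 of 14217 named genes. Granins are acidic, soluble proteins of the regulated secretory granule. They aggregate with prohormones in the trans-Golgi network, where granules form, and are cut at pairs of basic residues into smaller peptides, some of which are released with the hormones. In the islet they are carried in the granules of the endocrine cells, together with insulin, glucagon and the other hormones.

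Male Zucker Diabetic Fatty rats (fa/fa), which carry a defective leptin receptor and become obese and diabetic, were compared in 3 groups of 3 arrays. Treated rats received rosiglitazone, which activates the nuclear receptor PPAR gamma, in the feed at 3 mg per kg body weight from week 5 and were sampled at 9 weeks of age. Withdrawal rats received the same drug from week 5 to week 9 and were sampled at 11 weeks, 2 weeks after it was stopped. Untreated rats were sampled at 13 weeks. All groups shared the fa/fa genotype, male sex and the Purina 5008 diet, and 24 animals were randomised in the study. The labels call the arrays biological replicates and do not say how many animals gave each RNA. No 2 groups were of the same age, so drug and age cannot be told apart in any comparison.

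The arrays were described in log2 signal, where a difference of 1 is a doubling of signal. The spread of signal over all probe sets differed between arrays, with a standard deviation of 1.84 to 2.00 on treated, 1.65 to 1.72 on withdrawal and 1.66 to 1.77 on untreated arrays. Bright probe sets moved together. In the brightest decile, treated arrays were 0.53 above untreated ones at the decile's median, while withdrawal arrays were at -0.17 relative to untreated and at -0.72 relative to treated ones. Each granin difference below is therefore given as deposited and after quantile normalization, which gives all arrays the same distribution. The insulin genes Ins1 and Ins2 had group means of 14.11 to 14.29 and Gcg of 12.89 to 13.65. The mean of 10 acinar cell markers was 13.29 to 13.52 on treated, 13.24 to 13.49 on withdrawal and 13.32 to 13.48 on untreated arrays, so RNA of exocrine tissue was present in every group. These are whole-islet samples, in which fewer cells of a type and less RNA per cell cannot be told apart.

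Apart from Vgf, the granins were among the brightest probe sets. Chga, Chgb, Scg2 and Scg3 lay above at least 99.0% of the 31042 non-control probe sets on every array. Vgf lay above 40.7% to 53.3% of them on treated, 60.2% to 65.0% on withdrawal and 56.4% to 61.2% on untreated arrays. No detection calls were used here, so whether the Vgf probe set lay above background on a given array is unknown. All 5 passed the filter that left out the dimmest 33.3% of probe sets.

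**Figure D1:**
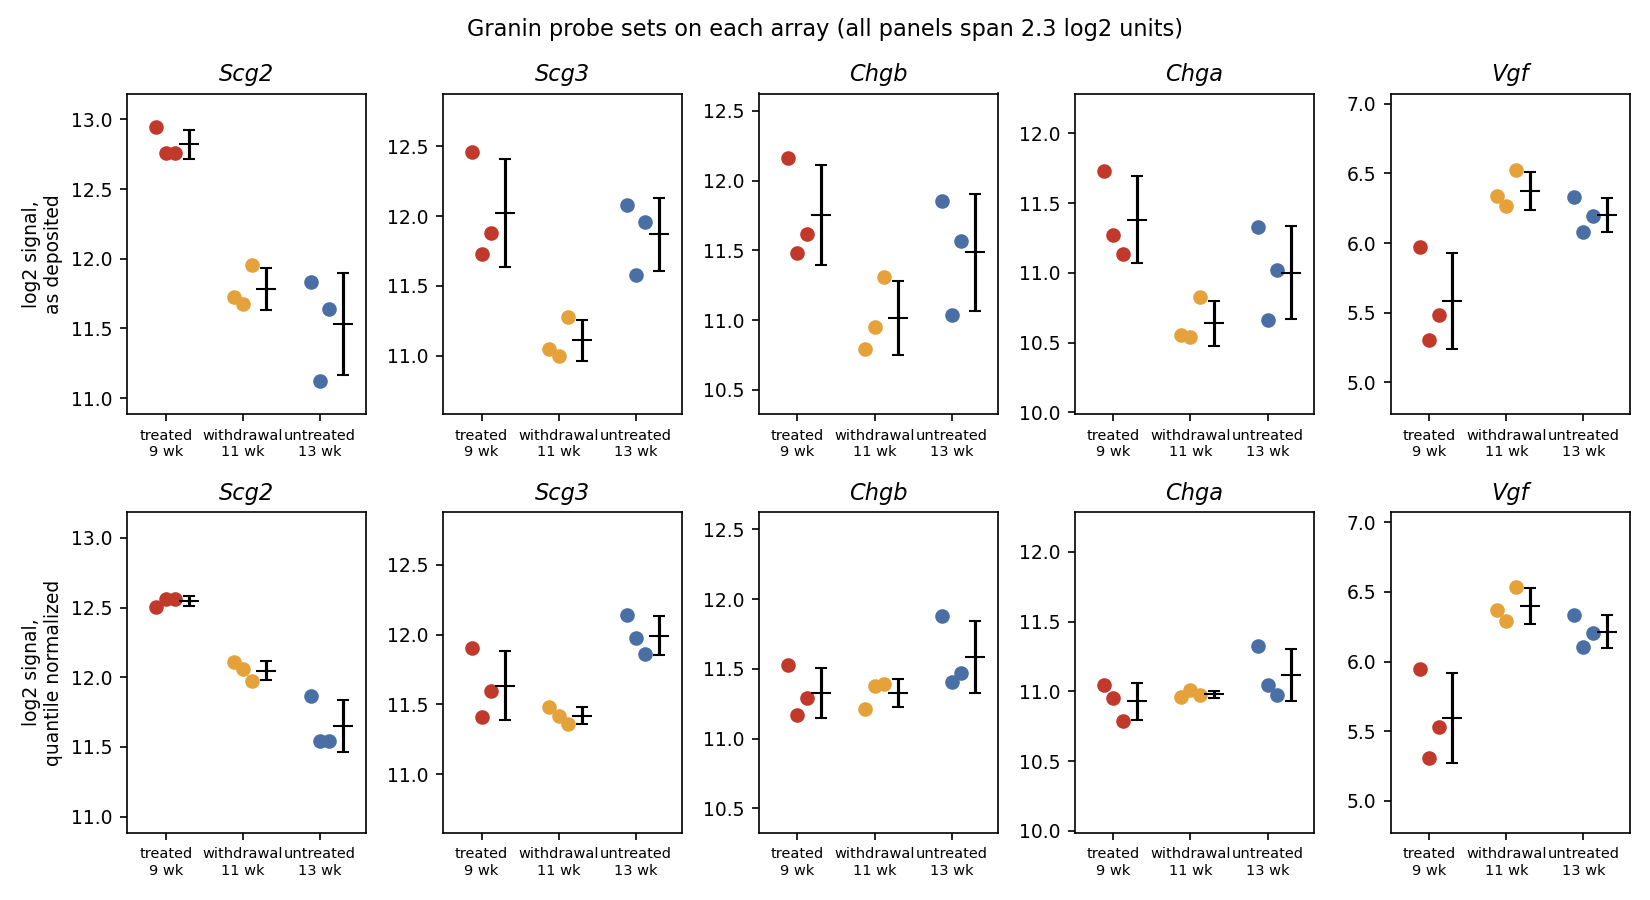
Log2 signal of the 5 granin probe sets on each array, as deposited (top row) and after quantile normalization (bottom row). Points are arrays and bars are the group mean ± SD (n = 3). Scg2 stood above both other groups on all treated arrays on both scales, and Vgf stood below both.

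The granins that differed most between treated and untreated arrays were Scg2, which was higher, and Vgf, which was lower. Both have the letters of a cAMP response element, the site bound by CREB and related factors, in the promoter window of the RefSeq tables (build GRCr8, 250 bases before to 50 after the start). Of the 5 members, 4 matched a window in these tables, Chgb, Scg2, Scg3 and Vgf. The windows were searched on both strands for the palindrome TGACGTCA and for its half-site TGACG, which the palindrome contains on each strand. The palindrome was present in 1.83% of 33469 windows and the half-site in 21.2%. Scg2 had the palindrome at bases -123 to -116 and Vgf at bases -90 to -83 before the start. Scg3 had a single half-site at bases -69 to -65, and Chgb had neither. The sequences around these matches are shown because the pair that share the full palindrome moved in opposite directions, with the matched bases in capitals, 5′ to 3′ along the gene. They lie at chr9:88256954-88257033 (minus strand) for Scg2, chr12:25277075-25277154 (minus strand) for Vgf and chr8:85322521-85322597 (minus strand) for Scg3.
Scg2: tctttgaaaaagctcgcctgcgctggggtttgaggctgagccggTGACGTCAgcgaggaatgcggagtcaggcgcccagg
Vgf: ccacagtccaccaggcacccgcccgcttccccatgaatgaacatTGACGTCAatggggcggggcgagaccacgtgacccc
Scg3: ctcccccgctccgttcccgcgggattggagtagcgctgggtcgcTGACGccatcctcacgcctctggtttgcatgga
The core of the PPAR response element, written as 2 copies of AGGTCA spaced by 1 base, was in none of the 4 windows and in 0.0538% of all windows. The TATA box TATAAA, found in 14.2% of windows, was present in that of Vgf on both strands, in matches that overlap at bases -43 to -36. The Scg2 and Vgf stretches lie inside the listed spans of their genes, chr9:88251531-88257208 and chr12:25274004-25281803. The start used for these 2 is therefore not the outermost start of the gene. A match is a description of the letters and was not tested for binding.

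Scg2 encodes secretogranin II, the precursor of the neuropeptide secretoneurin. Its log2 signal was 12.94, 12.76 and 12.76 on treated arrays, against 11.83, 11.13 and 11.64 on untreated arrays. The groups did not overlap, and the lowest treated array lay above the highest untreated array by more than the whole spread of the treated group. Scg2 rose by 1.29 ± 0.17 (SE, n = 3 per group), which is 2.44-fold with a 95% interval of 1.88 to 3.17 (limma adjusted p = 0.00124). After quantile normalization it rose by 0.90 ± 0.11 (limma adjusted p = 0.00141). The rank of Scg2 within each array gives the same order without any scaling. On treated arrays 61, 59 and 59 probe sets were brighter than Scg2, against 114, 157 and 157 on untreated arrays. The call held under all 19 alternative settings, with the difference between 0.90 and 1.44.

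Scg2 was lower after withdrawal than under the drug. It was 11.72, 11.68 and 11.95 on withdrawal arrays, against 12.94, 12.76 and 12.76 on treated arrays, with no overlap. It fell by 1.04 ± 0.17 (limma adjusted p = 0.00144). On the quantile-normalized scale it fell by 0.50 ± 0.11 (limma adjusted p = 0.00917), and this call also held under all 19 settings. Against untreated arrays the withdrawal arrays differed by 0.25 ± 0.17 (limma adjusted p = 0.814), and the groups overlapped as deposited. The 95% interval of that difference, -0.12 to 0.63, allows a difference of either sign. After quantile normalization the withdrawal arrays lay at 11.97 to 12.11, against 11.54 to 11.86 on untreated arrays, without overlap, and the difference of 0.40 ± 0.11 did not pass (limma adjusted p = 0.201). By rank, 90, 94 and 101 probe sets were brighter than Scg2 on withdrawal arrays, fewer than on any untreated array and more than on any treated array.

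Vgf encodes a neurotrophin-inducible granin-like precursor whose cleavage peptides act in energy balance in rodents. It was 5.97, 5.31 and 5.48 on treated arrays, against 6.33, 6.08 and 6.19 on untreated arrays, and the groups did not overlap. Vgf fell by 0.61 ± 0.17 (limma adjusted p = 0.0204). On the quantile-normalized scale it fell by 0.62 ± 0.15 (limma adjusted p = 0.021). This call was close to the threshold. It was lost without the second treated array (adjusted p = 0.0509), the third treated array (0.0524), the first untreated array (0.0685) or the second untreated array (0.0508), and when the withdrawal arrays were kept out of the fit (0.0521).

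The comparison of withdrawal with treated arrays gave a firmer difference for Vgf. It was 6.33, 6.26 and 6.53 on withdrawal arrays, against 5.97, 5.31 and 5.48 on treated arrays, again without overlap. Vgf rose by 0.79 ± 0.17, or 1.73-fold (95% interval 1.34 to 2.22; limma adjusted p = 0.0038). With quantile normalization it rose by 0.81 ± 0.15 (adjusted p = 0.0047). It was called under all 19 alternative settings. Withdrawal and untreated arrays overlapped, and their difference was 0.18 ± 0.17 (limma adjusted p = 0.87, 95% interval -0.19 to 0.54). On the quantile-normalized scale it was 0.19 ± 0.15 (limma adjusted p = 0.737). Of 7 T cell markers, limma called 5 higher in withdrawal against treated arrays and 3 lower in treated against untreated arrays, on both scales. Over all probe sets 11.2% were called higher in withdrawal against treated arrays (14.6% after quantile normalization), and 7.24% lower in treated against untreated arrays (9.45%). The mean of the T cell markers was 5.63 to 5.84 on treated, 6.21 to 6.38 on withdrawal and 6.08 to 6.13 on untreated arrays. In withdrawal against treated arrays, limma also called 2 of 7 macrophage markers higher as deposited and 3 after quantile normalization. Of 8 stellate and matrix markers, it called 0 as deposited (0 at an unadjusted p under 0.05) and 8 higher after quantile normalization. Of 7 duct markers it called 1 higher and 2 lower as deposited, and 1 higher and 0 lower after quantile normalization. For 5 endothelial markers it called 1 lower as deposited and 0 after quantile normalization. None of 5 nerve and Schwann markers was called on either scale. The share of all probe sets called lower there was 32.6%, and 14.6% after quantile normalization. The part of these markers in the Vgf difference was not tested.

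Chga and Chgb encode the chromogranins A and B, the granins first described in adrenal chromaffin granules. Chga was 11.73, 11.27 and 11.14 on treated arrays, against 11.33, 10.66 and 11.02 on untreated arrays. The groups overlapped, and the difference of 0.38 ± 0.19 did not pass (limma adjusted p = 0.157). Its sign turned after quantile normalization, to -0.19 ± 0.12 (limma adjusted p = 0.285). Chgb was 12.16, 11.48 and 11.62 on treated arrays, against 11.86, 11.03 and 11.57 on untreated arrays, and these groups overlapped too. Its difference was 0.27 ± 0.23 as deposited (limma adjusted p = 0.392) and -0.26 ± 0.14 after quantile normalization (adjusted p = 0.225). For neither chromogranin did these arrays settle a direction between treated and untreated rats.

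Both chromogranins were lower on withdrawal than on treated arrays as deposited, by about as much as other bright probe sets. Chga was 10.55, 10.54 and 10.82 on withdrawal arrays, all below the treated arrays, and fell by 0.74 ± 0.19 (limma adjusted p = 0.00992). Chgb was 10.79, 10.95 and 11.31 on withdrawal arrays, also all below the treated arrays, and fell by 0.74 ± 0.23 (limma adjusted p = 0.0221). The median of the brightest decile was -0.72 in this comparison. After quantile normalization the differences were 0.05 ± 0.12 for Chga (adjusted p = 0.765) and -0.0025 ± 0.14 for Chgb (adjusted p = 0.991). The Chgb call was also lost without the first or the second withdrawal array (adjusted p = 0.0925 and 0.0743). Against untreated arrays, the withdrawal arrays differed by -0.36 ± 0.19 for Chga and -0.47 ± 0.23 for Chgb, with overlapping groups (limma adjusted p = 0.747 and 0.711). On the quantile-normalized scale these were -0.14 ± 0.12 and -0.26 ± 0.14 (limma adjusted p = 0.745 and 0.569). There Chga still overlapped, while Chgb lay at 11.21 to 11.39 on withdrawal and 11.41 to 11.88 on untreated arrays, without overlap.

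Scg3 encodes secretogranin III, which binds chromogranin A and the cholesterol-rich granule membrane. It was 12.46, 11.73 and 11.88 on treated arrays, against 12.08, 11.58 and 11.96 on untreated arrays. These groups overlapped, and the difference was 0.15 ± 0.19 (limma adjusted p = 0.574). On the quantile-normalized scale it was -0.36 ± 0.13 (adjusted p = 0.085). Without the first treated array the deposited difference was -0.066, of the opposite sign.

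Scg3 was lowest on the withdrawal arrays. It was 11.05, 11.00 and 11.28 there, against 12.08, 11.58 and 11.96 on untreated arrays, with no overlap. The difference of -0.76 ± 0.19 (95% interval -1.19 to -0.34) did not pass the adjustment over all probe sets (limma adjusted p = 0.264), and after quantile normalization it was -0.57 ± 0.13 (limma adjusted p = 0.116). It lay at the 0.411th percentile of all differences in that comparison. The difference did not pass in 15 of the 19 alternative settings, among them 8 of the 9 fits with 1 array left out. It passed without the first treated array (limma adjusted p = 0.00781), and so with quantile normalization added (0.0149). It also passed with array weights (0.000113) and when all treated arrays were kept out of the fit (0.00904). With array weights 3275 of 20695 probe sets were called, against 33 in the main fit. As deposited and without array weights, the first treated array enters this comparison only through the shared estimate of the spread. Under quantile normalization it also enters the common distribution, and without it the Scg3 difference went from -0.57 to -0.59. This array had the lowest array weight, 0.163. Its part in these changes was not tested. Against treated arrays, Scg3 fell by 0.91 ± 0.19 on withdrawal arrays (adjusted p = 0.00386), and by rank 164 to 183 probe sets were brighter on withdrawal arrays and 107 to 175 on treated arrays. After quantile normalization that difference was -0.22 ± 0.13 (adjusted p = 0.237).

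**Figure D2:**
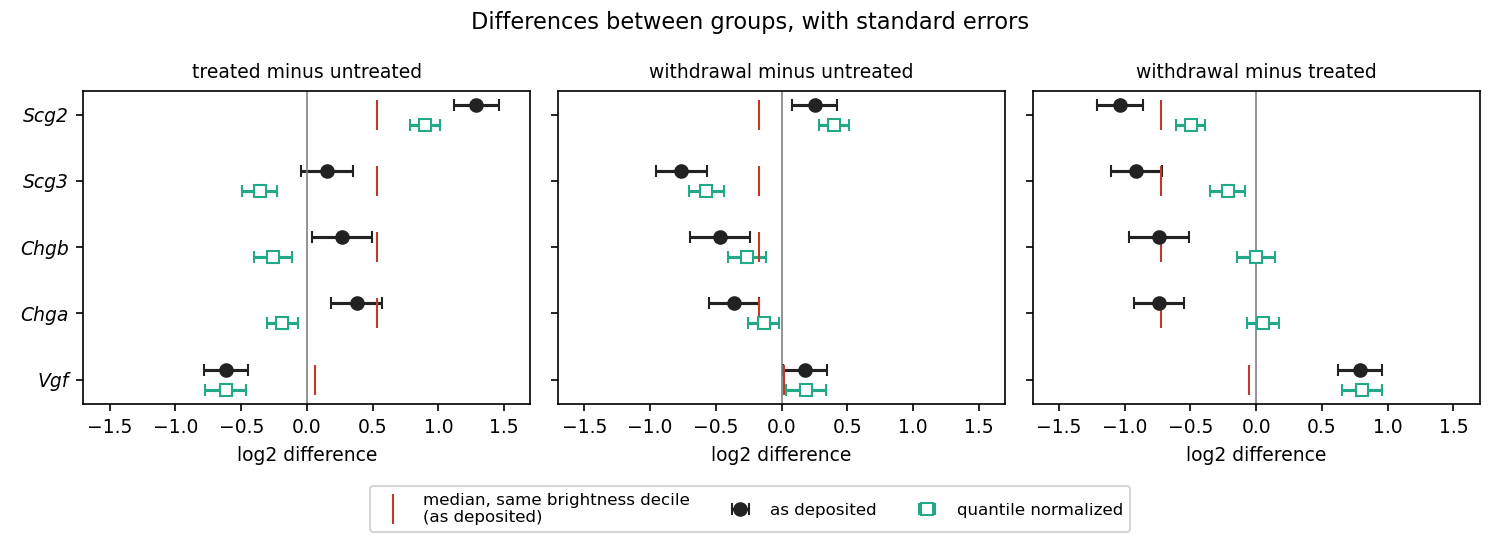
Log2 differences of the 5 granins in the 3 comparisons, as deposited (filled circles) and after quantile normalization (open squares), with standard errors. Vertical red marks give the median of tested probe sets in the same brightness decile. Scg2 and Vgf kept their sign on both scales in each comparison, while Chga turned from 0.38 to -0.19 in treated minus untreated arrays.

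Counted over the family, 1 granin rose and 1 fell in treated against untreated arrays, where limma called 28.1% of 20695 probe sets, 20.9% higher and 7.24% lower. The same 2 granins were called after quantile normalization, where 7.75% of the probe sets were higher and 9.45% lower. Values of Scg2 and Vgf did not overlap between these groups, as was so for 42.9% of the probe sets. The median of the 5 was 0.27, against 0.16 over all tested probe sets and 0.53 in the brightest decile, where 4 of the 5 lie. With quantile normalization it was -0.26, against 0.02 over all tested probe sets. In withdrawal against untreated arrays, limma called 0 of 5 granins, and 1 (Scg3) at an unadjusted p under 0.05. The corresponding shares of all probe sets were 0.159% (0.00483% higher and 0.155% lower) and 7.5%. After quantile normalization 0 of 5 were called, where 0.0338% of the probe sets were higher and 0.387% lower. The median of the 5 was -0.36, against -0.02 over all tested probe sets and -0.17 in the brightest decile. With quantile normalization it was -0.14. As deposited, Scg3 was the member whose values did not overlap, as was so for 18% of the probe sets. After quantile normalization Scg2, Scg3 and Chgb did not overlap, and the share of all probe sets was not counted on that scale. In withdrawal against treated arrays, 1 rose and 4 fell, where 43.8% of the probe sets were called, 11.2% higher and 32.6% lower, and none of the 5 overlapped, as was so for 53.9%. The median of the 5 was -0.74, against -0.19 over all tested probe sets and -0.72 in the brightest decile. With quantile normalization it was -0.0025. After quantile normalization Vgf rose and Scg2 fell there, where 14.6% of the probe sets rose and 14.6% fell. The moderated F test over the groups called Chga (adjusted p = 0.0281), Scg2 (0.00132), Scg3 (0.0079) and Vgf (0.00847) but not Chgb (0.0578), where it called 37% of all probe sets.

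**Figure D3:**
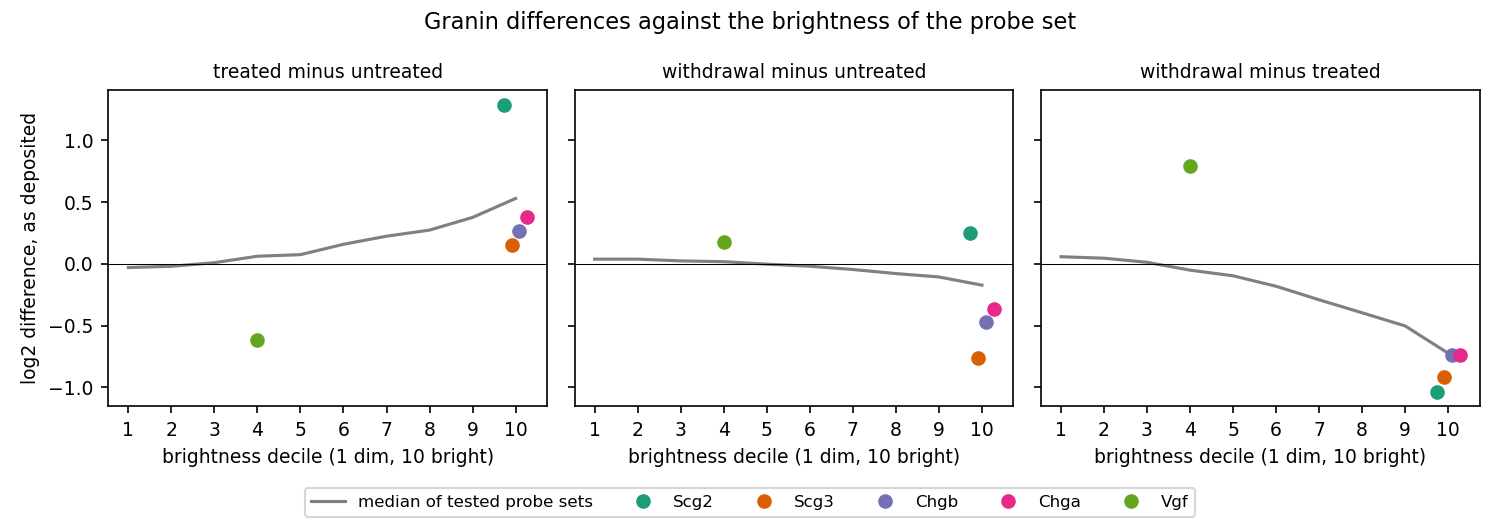
Log2 difference of each granin, as deposited, against the brightness decile of its probe set (4 granins lie in decile 10 and are spread sideways to be seen). The grey line is the median of tested probe sets per decile. In withdrawal minus treated arrays Chga and Chgb lay at the line, and Vgf lay far above it in decile 4.

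Ratios of 2 granins within each array were also taken, as a description. The 10 pairs were compared in 3 comparisons with an exact two-sided permutation test of 20 arrangements. With 3 arrays per group this test cannot give a p below 0.1, so none could pass. The smallest permutation p after Benjamini-Hochberg adjustment over all of them was 0.15 on either scale. As deposited, 8 of the 10 pairs did not overlap in treated minus untreated, 7 in withdrawal minus untreated and 5 in withdrawal minus treated arrays. Single probe sets did not overlap in 42.9%, 18% and 53.9% of cases in the same comparisons. The share over pairs of other probe sets was not counted. The 10 pairs are built from 5 probe sets and are not independent, so their counts are no result about the granins as a family. The ratio of Scg2 to Chga, set to 0 at its untreated mean, was 0.68, 0.96 and 1.09 on treated arrays and 0.64, 0.60 and 0.60 on withdrawal arrays, against -0.02, -0.06 and 0.09 on untreated arrays. Both exposed groups lay above the untreated arrays without overlap, by 0.91 ± 0.13 for treated and 0.61 ± 0.05 for withdrawal (exact permutation p = 0.1 each). After quantile normalization these differences were 1.08 and 0.53. As deposited, the withdrawal ratio combined a difference from untreated of 0.25 in Scg2 and -0.36 in Chga, neither past the threshold.

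The ratio of Scg2 to Scg3 differed from untreated by about as much in both exposed groups. Set to 0 in the same way, it was 0.82, 1.37 and 1.22 on treated arrays and 1.01, 1.01 and 1.01 on withdrawal arrays, against 0.09, -0.11 and 0.02 on untreated arrays. The difference from untreated was 1.14 ± 0.17 for treated and 1.01 ± 0.06 for withdrawal (exact permutation p = 0.1 each), and 1.25 and 0.97 after quantile normalization. Treated and withdrawal arrays overlapped in this ratio, with a difference of -0.12 ± 0.16. The members behind it differed between the groups. As deposited, treated minus untreated was 1.29 for Scg2 and 0.15 for Scg3. Withdrawal minus untreated was 0.25 for Scg2 and -0.76 for Scg3, neither past the threshold. The ratio of Scg3 to Chga was lower on withdrawal than on untreated arrays without overlap, with a difference of -0.40 ± 0.06. On treated arrays it was also lower than on untreated ones without overlap, at -0.23 ± 0.11, but these groups overlapped after quantile normalization. Treated and withdrawal arrays overlapped in this ratio, with a difference of -0.17 ± 0.09. The ratio of Chgb to Chga overlapped between the groups in all 3 comparisons, with differences of -0.11 ± 0.10, -0.11 ± 0.09 and 0.0031 ± 0.11 in treated minus untreated, withdrawal minus untreated and withdrawal minus treated arrays.

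**Figure D4:**
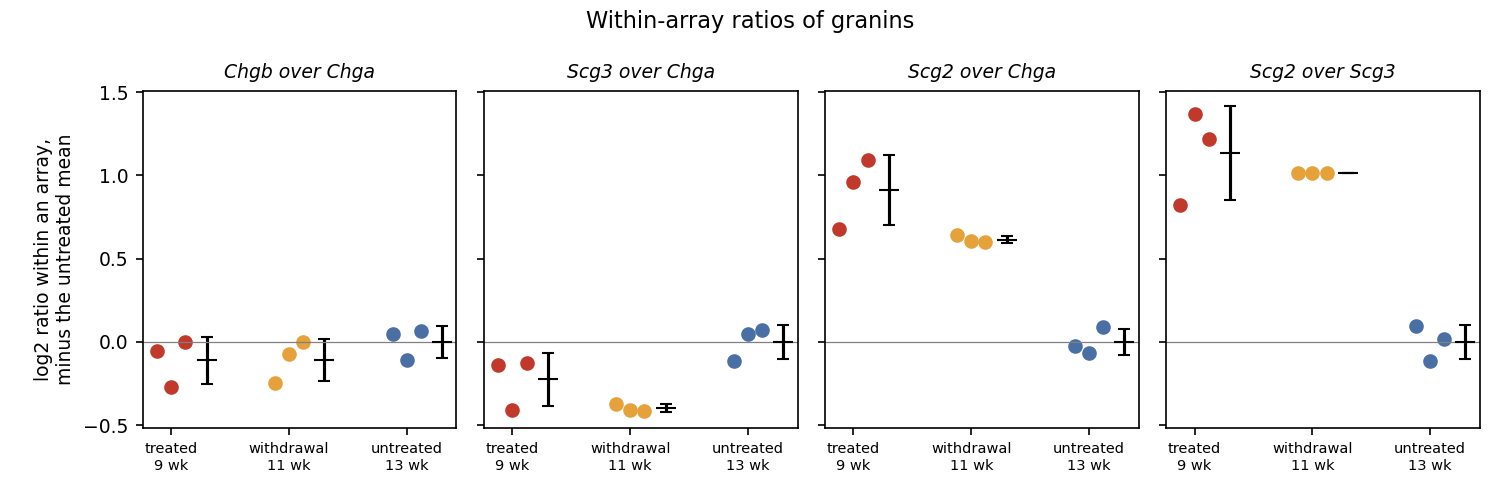
Within-array log2 ratios of 4 granin pairs, as deposited, with the untreated mean set to 0. Points are arrays and bars are the group mean ± SD (n = 3). Scg2 over Scg3 was near 1.01 on all withdrawal arrays and near 0 on untreated arrays, while Chgb over Chga overlapped between groups.

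Genes with a profile most like that of each granin were taken by Pearson r over the 9 arrays, among 11618 other genes, as a description. Scg2 was most like Zdhhc2 (r = 0.992), Pcsk2 (0.988), the prohormone convertase that cuts proglucagon and other precursors, and Gprc5c (0.987). After quantile normalization these were 0.906, 0.985 and 0.904. Vgf was most like the interferon-inducible gene Rtp4 (0.983), the chloride channel gene Cftr (0.972) and Arhgap42 (0.965), with 0.989, 0.955 and 0.969 after quantile normalization. Scg3 was most like Lman2 (0.992), Prnp (0.990), the prion protein gene, and Zwint (0.988), with 0.921, 0.951 and 0.871 after quantile normalization. Chga was most like Anks1a, Tspan5 and Rab21, at 0.996, 0.994 and 0.989, and after quantile normalization at 0.202, 0.496 and 0.479. For Chgb the genes were Trpc4ap, Bsg and Sqstm1, at 0.984, 0.980 and 0.979, and after quantile normalization at 0.508, 0.746 and 0.890. The 9 arrays share their groups and the spread of signal described above.

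Of 3 granin-like genes, Pcsk1n, which encodes the convertase inhibitor proSAAS, rose in treated against untreated arrays by 1.09 and, with quantile normalization, by 0.59 (limma adjusted p = 0.00125 and 0.00508). Scg5, which encodes 7B2, the chaperone of the convertase Pcsk2, had differences of 0.019 in treated minus untreated and -0.79 in withdrawal minus untreated arrays. Neither passed as deposited (adjusted p = 0.942 and 0.147), and after quantile normalization Scg5 fell by 0.41 and 0.62 (adjusted p = 0.0152 and 0.0136). Gnas, whose locus also encodes the granin-like NESP55, did not pass in any comparison. The median of the 3 was 0.019 in treated minus untreated and -0.61 in withdrawal minus untreated arrays, against 0.16 and -0.02 over all probe sets. After quantile normalization the medians of the 3 were -0.23 and -0.50.

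Among 6 measured processing enzymes, Pcsk2 rose by 1.11 in treated against untreated arrays (limma adjusted p = 0.00207). On the quantile-normalized scale Pcsk2 rose by 0.63 (adjusted p = 0.0043). The carboxypeptidase gene Cpd rose by 0.49 (adjusted p = 0.0227) and had a difference of 0.04 after quantile normalization (adjusted p = 0.827). The other 4 did not pass, among them Cpe, the carboxypeptidase of endocrine granules, at 0.48, and the convertase gene Furin at 0.35. Pam, which amidates peptides, fell by 0.43 after quantile normalization (adjusted p = 0.0212), and as deposited its adjusted p was 0.795. Of the 6, 2 rose as deposited, where 20.9% of all probe sets were called higher, and 1 rose and 1 fell after quantile normalization. Their median was 0.41, against 0.16 over all probe sets, and turned to -0.053, against 0.015, after quantile normalization.

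Of 16 granule membrane and cargo genes, 5 rose and 1 fell in treated against untreated arrays, where 20.9% of all probe sets were called higher and 7.24% lower. After quantile normalization 1 rose and 3 fell, where the shares were 7.75% and 9.45%, and the median of the 16 was -0.044, against 0.38 as deposited. Rab27a, a GTPase that docks granules, rose by 1.03 and by 0.73 after quantile normalization. Clu, Ptprn2, Rab3a and Vamp2 rose by 0.68, 0.67, 0.63 and 0.48 as deposited, and none of these 4 passed after quantile normalization. Slc18a2, the vesicular monoamine transporter, fell by 0.40 and by 0.48 after quantile normalization. Also lower after quantile normalization were Npy, a neuropeptide precursor gene, at -0.87 (adjusted p = 0.00309), and Ptprn, which encodes the granule membrane protein IA-2, at -0.58 (adjusted p = 0.00833). As deposited neither passed (adjusted p = 0.0513 and 0.855). Of 13 granule biogenesis genes, 6 rose as deposited, where 20.9% of all probe sets were called higher, among them Rab2a by 0.62, Arfip1 by 0.63 and Ica1 by 0.47. After quantile normalization limma called 0 of these 13 higher and 1, Tgoln2, lower, by 0.57. The median of the 13 was 0.45 as deposited and -0.028 after quantile normalization.

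In withdrawal against treated arrays 12 of the 13 biogenesis genes fell as deposited, where 32.6% of all probe sets were called lower. After quantile normalization 2 of them fell, where 14.6% of all probe sets were called lower, and their median was -0.15, against -0.70 as deposited. In the same comparison 7 of the 16 membrane and cargo genes fell as deposited, with 2 higher and 3 lower after quantile normalization. In withdrawal against untreated arrays limma called 0 of the members of these lists as deposited. At an unadjusted p under 0.05, it gave 2 of 3 granin-like, 0 of 6 processing, 5 of 13 biogenesis and 2 of 16 membrane and cargo genes lower, with 1 of the last list higher. Over all probe sets, 7.5% had such a p in either direction.

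Islet hormone genes were set beside the granins because both share the granule. Of 8, 3 rose in treated against untreated arrays on both scales: Sst, Ppy and Pyy, by 1.29, 1.14 and 1.5 as deposited. The share of all probe sets called higher there was 20.9% as deposited and 7.75% after quantile normalization, which also stands beside the marker and regulator counts that follow. Of 5 delta and PP cell markers, which include these 3, 4 rose in that comparison and 4 fell in withdrawal against treated arrays, on both scales, where 32.6% and, after quantile normalization, 14.6% of all probe sets were called lower. Their mean was 10.18 to 10.55 on treated, 9.06 to 9.39 on withdrawal and 9.22 to 9.38 on untreated arrays. Of 8 beta cell markers, limma called 4 higher in treated against untreated arrays as deposited and 0 after quantile normalization. The mean of these 8 beta cell markers was 11.45 to 11.55, 10.70 to 10.87 and 10.85 to 11.14 in the same groups. In withdrawal against treated arrays, 5 of the 8 were lower as deposited and 3 after quantile normalization. Of 4 alpha cell markers, limma called 1 higher in treated against untreated arrays as deposited. After quantile normalization it called 1 higher and 1 lower, where 9.45% of all probe sets were lower. In withdrawal against treated arrays it called 2 of the 4 lower as deposited. After quantile normalization 2 were lower and 1 higher there, where 14.6% of all probe sets were higher. The part of these markers in the Scg2 difference was not tested. Of 11 measured genes for transcription factors and coactivators with known roles at granin promoters or in endocrine cells, 5 rose as deposited. Egr1 rose by 1.62 and Pax6 by 1.14, and both also rose after quantile normalization, by 1.04 and 0.62. Creb1 and Rest, which encode an activator at cAMP response elements and a repressor of granin genes outside neuroendocrine cells, differed by -0.26 (adjusted p = 0.164) and -0.19 (adjusted p = 0.321) and did not pass. Crem, a gene of the same factor family as Creb1, fell by 0.74 after quantile normalization (adjusted p = 0.0125), and as deposited it differed by -0.41 (adjusted p = 0.0861).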

How the data were processed

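Affymetrix rat whole-genome arrays were used. RMA and MAS5 are named, per the submitters' processing notes, with roles and versions not given in the sources used here. The authors deposited 1 value per probe set and array. The deposited values were taken to be log2 from their range, without zeros. These are array signals without a read depth, with 3 arrays per group, and what limits the precision was not tested. Gene names came from the platform annotation, updated by gene number through the RefSeq table of GRCr8. Of 31042 non-control probe sets, 20826 had 1 symbol, 436 several and 9780 none listed. Limma 3.58.1 in R 4.3.3 fitted a term per group to all 9 arrays, with Benjamini-Hochberg adjustment over the 20695 probe sets above the lowest 33.3% by mean, and an adjusted p under 0.05 as the threshold. The fit was tested on simulated data. Members, gene lists, tests and the rule for named genes (all members, the 3 most alike genes each, and up to 5 list genes by smallest p) were chosen with earlier results of these data known. Pam, Npy, Ptprn, Slc18a2, Tgoln2, Creb1, Rest and Crem fall outside that rule and were named after their values were seen. A gene was represented by its brightest probe set. Genes of the lists without a value here include Pcsk1, Slc30a8 and Insm1, and Vti1a was below the filter. P-values set a group difference against the spread between these arrays, and the number of animals behind each array is unknown. Figures were drawn with matplotlib 3.10.9.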

Additional observations from a re-analysis of the deposited data

How the results depend on the processing

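Each difference was recomputed under 19 alternative settings. Between treated and untreated arrays, the 2 granin calls became 1 when the withdrawal arrays were kept out of the fit and ranged from 1 to 2 with each array left out. Calls over all 20695 probe sets went from 5817 to 3209 in the former and were 2033 to 6319 in the latter. Quantile normalization turned Chga to -0.19, Chgb to -0.26 and Scg3 to -0.36, and with the first treated array also left out they were -0.25, -0.36 and -0.51, the last past the threshold (limma adjusted p = 0.0106). Array weights gave -0.024 for Chgb and -0.090 for Scg3, and Scg3 ranged from -0.066 (without the first treated array) to 0.30 with each array left out. Between withdrawal and untreated arrays the count of 0 became 3 with array weights (Chga, Chgb and Scg3). It was 1 with the treated arrays kept out of the fit and 1 after quantile normalization without the first treated array. With each array left out it ranged from 0 to 1. Calls over all 20695 probe sets rose from 33 to 3275, 494 and 409 in the first 3 of these settings. They were 7 to 398 with each array left out. Between withdrawal and treated arrays the count of 5 became 2 after quantile normalization, where Chga was 0.051, and 2 with the first treated array also left out, where Chga was 0.11 and Chgb 0.097. The granin count ranged from 4 to 5 with each array left out. Calls over all 20695 probe sets went from 9057 to 6032 and 6801 in the 2 quantile-normalized settings. They were 5587 to 9511 with each array left out. The cause of these changes was not tested. With the replicate number as a block the counts were 2, 0 and 5, unchanged. Deviations from the group means had correlations of -0.28 to 0.50 between same-numbered arrays of different groups. Between differently numbered arrays they were -0.48 to 0.41. These ranges overlap widely and do not settle whether the numbers pair the arrays. Offsets before logarithms, planned for linear values, were not run.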
